A study of Mus musculus with 12 samples.

Results

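The 9 genes followed here steer lymphocytes to and from lymphoid tissue. They are the chemokine receptors Cxcr5, Ccr7, Cxcr4 and Ccr6, the oxysterol receptor Gpr183, the sphingosine 1-phosphate receptors S1pr1, S1pr3 and S1pr4, and the transcription factor Klf2. They make up 9 of the 24982 gene symbols in the data. These genes and the further lists below were chosen by name, with earlier results of these data known. The RNA was polyadenylated RNA of splenic B lymphocytes, taken from mice at an age of 6 weeks. The 12 libraries came from 3 genotypes, with 4 libraries each labelled as biological replicates. The first group was WT (C57BL/J6) and carried neither alteration. The second, Eμ-Myc, carried a Myc transgene driven by the immunoglobulin heavy chain enhancer, which acts mainly in the B lineage. The third, Eμ-Myc; PRPS2 KO, carried the same transgene and lacked PRPS2, an enzyme that makes phosphoribosyl pyrophosphate for nucleotide synthesis. It is called the knockout group here, and its control is Eμ-Myc. No group used here lacked PRPS2 without the transgene. How the B lymphocytes were isolated, and whether PRPS2 was lost in all tissues, is not given in the sources used here.

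Naive B cells recirculate between blood and lymphoid organs by reading gradients of chemoattractants through receptors coupled to inhibitory G proteins. CXCR5 reads CXCL13 and draws B cells into follicles, CCR7 reads CCL19 and CCL21 and draws lymphocytes to the T-cell zone and its border, and CXCR4 reads CXCL12 and holds cells in the bone marrow and in splenic niches. GPR183, also called EBI2, reads an oxysterol and places B cells at the outer follicle. S1PR1 reads sphingosine 1-phosphate in blood and lymph and lets lymphocytes leave tissue, and in the spleen it keeps marginal zone B cells at their place. KLF2 is a transcription factor of resting lymphocytes that is known to promote S1pr1 transcription in T cells and to restrain the marginal zone fate in B cells.

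All 9 genes lay at single loci of the GRCm38 (mm10) genome and were annotated as protein coding in GENCODE M21. Klf2 lay on the forward strand at chr8:72319033-72321656, S1pr4 on the reverse strand at chr10:81497747-81500132 and S1pr3 on the forward strand at chr13:51408639-51422797. Of the other receptor genes only Ccr6, at chr17:8236043-8257141, lay on the forward strand. The reverse strand held Cxcr4 at chr1:128588199-128592293, Cxcr5 at chr9:44511787-44561877, Ccr7 at chr11:99144196-99155077, S1pr1 at chr3:115710433-115715072 and Gpr183 at chr14:121952551-121965195. Promoter sequences in RefSeq's GRCm38.p6 tables covered 6 of the 9 genes, with no entry for Cxcr5, Ccr7 and S1pr1. The promoters of Klf2, S1pr3 and S1pr4 are printed. KLF2 is known to act on S1P receptor genes, and between WT and Eμ-Myc S1pr4 moved least of the 9 genes and S1pr3 was among those that moved most. Capitals mark CACCC, the core letters of the element that KLF proteins bind, or its reverse complement GGGTG, and, as the run of 10 letters in Klf2 and in S1pr3, a match to the MEF2 consensus. The positions are chr8:72318812-72319032 on the forward strand for Klf2, chr13:51408368-51408617 on the forward strand for S1pr3 and chr10:81500138-81500387 on the reverse strand for S1pr4.
Klf2: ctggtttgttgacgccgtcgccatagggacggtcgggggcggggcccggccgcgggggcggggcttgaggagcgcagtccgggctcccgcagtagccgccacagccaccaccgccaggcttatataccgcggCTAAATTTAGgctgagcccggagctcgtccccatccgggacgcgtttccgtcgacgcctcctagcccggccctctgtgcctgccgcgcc
S1pr3: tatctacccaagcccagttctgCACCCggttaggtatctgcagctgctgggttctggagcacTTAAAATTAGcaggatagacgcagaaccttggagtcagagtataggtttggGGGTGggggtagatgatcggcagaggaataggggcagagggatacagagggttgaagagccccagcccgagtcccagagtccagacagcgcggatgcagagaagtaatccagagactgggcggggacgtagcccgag
S1pr4: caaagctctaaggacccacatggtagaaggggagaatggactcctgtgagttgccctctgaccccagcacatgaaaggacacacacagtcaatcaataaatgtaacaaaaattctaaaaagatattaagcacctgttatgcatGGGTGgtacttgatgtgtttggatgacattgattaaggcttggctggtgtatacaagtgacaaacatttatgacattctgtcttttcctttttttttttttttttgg
Over the 250 bases before each RefSeq start, CACCC on either strand occurred once in Cxcr4, S1pr4 and Klf2, 2 times in S1pr3, and not in Gpr183 or in either of the 2 promoters listed for Ccr6. The match in Klf2 lies in the bases not printed, which come after the gene's start in GENCODE and before that in RefSeq. A match was common, since 52% of 32851 promoters of the same length held at least 1. The E-box CACGTG, the preferred letters of MYC and MAX, was held by 6.02% of those promoters, and GTAAACA, the forkhead (FOXO) motif, on either strand by 3.17%. Neither was found in the promoters of the 6 genes. The MEF2 consensus, which reads the same on both strands, was searched for after the Klf2 sequence had been seen. It matched once in Klf2, once in S1pr3 and in no other of the 6 genes, and 2.92% of all promoters held a match. These are matches of letters in a window and not measured binding.

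Values are the authors' mean coverage per gene, scaled here between libraries. They are relative to the other genes of a library, and the amount of RNA per cell was not measured. A difference is a log2 ratio after 0.5 was added, and a gene was called when its Benjamini-Hochberg adjusted p from limma, over all genes tested, was under 0.05. The summed coverage per library ran from 1277305.5 to 1885768.9, and the read depth of a value cannot be given. The targeted gene followed the labels: Prps2 averaged 125 ± 19.8 for WT, 246 ± 36.5 for Eμ-Myc and 17.1 ± 0.857 where it was knocked out (SD, n = 4). Myc was 272 ± 52.8, 1915 ± 311 and 2279 ± 1042 in the same order. All 7 B-cell markers were above 1 in every library, and their summed coverage ranged from 5990.4 to 11643 for WT, 6901 to 8555 for Eμ-Myc and 6329.6 to 7024 for the knockout group. The knockout libraries stood apart in pairs. Across genes, libraries 1 and 2 correlated at 0.9883 and libraries 3 and 4 at 0.9946, while pairs that crossed between them lay between 0.8844 and 0.9182. In bulk RNA, fewer cells that express a gene and less RNA of it per cell cannot be told apart, which holds for every value below.

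Scaled coverage was called lower in Eμ-Myc than in WT for 8 of the 9 genes, S1pr4 being the exception. Mean coverage in Eμ-Myc ranged from 17.7% of the WT mean for Gpr183 to 60.9% for Cxcr4, and was 86.2% for S1pr4. In this comparison 24.7% of the 12723 genes tested were called lower and 30.4% higher, 55.1% in all. The 4 libraries of Eμ-Myc lay below all 4 of WT for the same 8 genes, an arrangement found in 22.8% of the genes tested. The median log2 difference of the 9 genes was -1.32, and that of all genes tested was -0.01. Calls were thus common among all genes in this comparison.

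**Figure D1:**
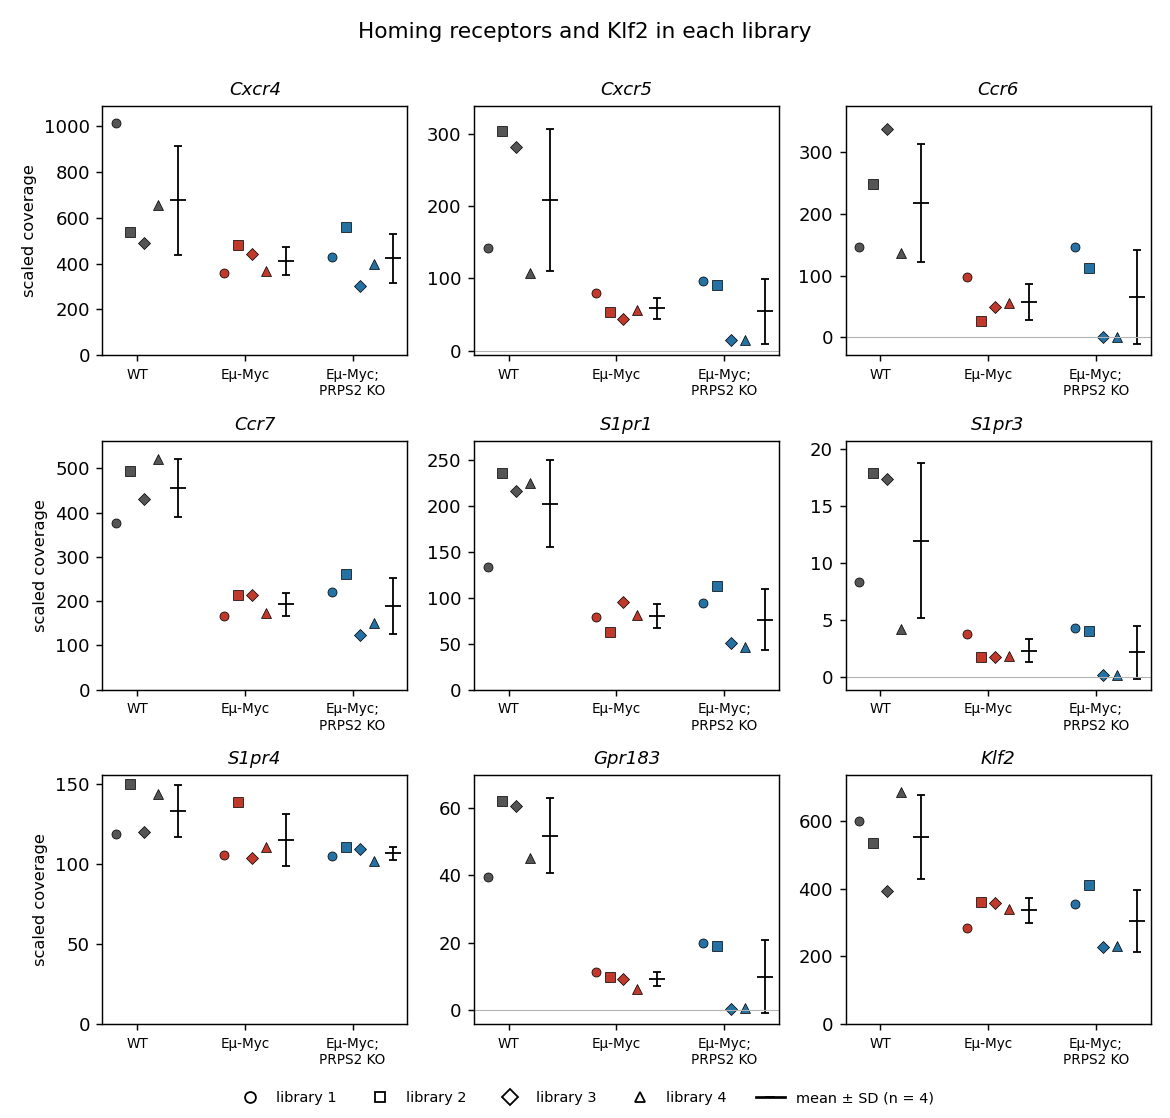
Scaled coverage of the 9 genes in each of the 12 libraries, on a linear axis that includes 0, with 1 panel per gene. Marker shapes stand for libraries 1 to 4 of WT, Eμ-Myc and Eμ-Myc; PRPS2 KO, and the bars for mean ± SD (n = 4). Eμ-Myc points lie below all WT points for each gene but S1pr4, and knockout libraries 3 and 4 fall near 0 for Ccr6, S1pr3 and Gpr183.

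Cxcr5, the receptor that brings B cells into follicles, had a scaled coverage of 142, 304, 281 and 108 in WT libraries 1 to 4, and of 79.4, 53.2, 44.5 and 56.8 in Eμ-Myc. The groups did not overlap, although WT libraries 1 and 4 were well below the other WT libraries. The mean fell from 209 ± 98.0 to 58.5 ± 14.9 (SD, n = 4), a log2 difference of -1.73 (SE 0.34, limma adjusted p = 0.00269). Among the knockout libraries the values were 95.9, 91.5, 14.7 and 15.2, so that libraries 1 and 2 were above every Eμ-Myc library and libraries 3 and 4 below.

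Ccr6, the receptor of CCL20, which is carried by mature B cells and helps to position memory and marginal zone cells, was 147, 249, 338 and 136 in WT and 98.0, 27.3, 49.7 and 55.5 in Eμ-Myc. WT libraries 1 and 4 were again the lowest of WT. The log2 difference was -1.95 (SE 0.41, limma adjusted p = 0.00361), and was not called when all 12 libraries shared 1 fit (adjusted p = 0.343). For the knockout libraries Ccr6 was 147 and 112 in libraries 1 and 2, the former within the WT range, and 0.222 and 0 in libraries 3 and 4. Relative to its mean it varied more than any other of the 9 genes within that group, with a mean of 64.8 ± 76.1 (SD, n = 4).

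Ccr7 was 377, 494, 431 and 521 in WT, 167, 215, 215 and 173 in Eμ-Myc, and 221, 262, 123 and 150.1 in the knockout group. Every library with the transgene was below every WT library. The mean went from 456 ± 65.0 to 193 ± 26.2 (SD, n = 4), a log2 difference of -1.24 (SE 0.14, limma adjusted p = 7.70e-05). The spread within WT was small beside the difference.

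Cxcr4, the receptor with the highest level of the 9 genes in each group, was 1014, 539, 492 and 658 in WT and 357, 481, 440.4 and 367 in Eμ-Myc. The highest Eμ-Myc library came close to the lowest WT library without reaching it. The log2 difference was -0.67 (SE 0.22, limma adjusted p = 0.0270). The call was lost, with the difference about as large, without WT library 4 (-0.66, adjusted p = 0.0506), without Eμ-Myc library 1 (-0.60, 0.0690) and without Eμ-Myc library 4 (-0.62, 0.0682). A replicate block ended the call as well, with the same difference (-0.67, 0.0568). Without WT library 1, the highest, the difference was smaller and still called (-0.45, 0.0335), and without both WT libraries 1 and 4 it was -0.33 (0.103).

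Gpr183 showed the largest difference of the 9 genes. Its scaled coverage was 39.5, 61.9, 60.7 and 45.0 in WT and 11.4, 9.83, 9.14 and 6.31 in Eμ-Myc, with a wide gap between the groups. The log2 difference was -2.44 (SE 0.21, limma adjusted p = 1.88e-05), or an adjusted p of 0.0515 when all 12 libraries shared 1 fit. It was, in the knockout group, 20.0 and 18.9 in libraries 1 and 2, above Eμ-Myc, and 0.444 and 0.555 in libraries 3 and 4, below. Gpr183 lies within an intron of Ubac2 on the opposite strand, with no exonic base in common.

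S1pr1, the main exit receptor of lymphocytes, was 133, 236, 216 and 225 in WT, 79.2, 63.2, 95.1 and 81.6 in Eμ-Myc and 94.9, 113, 50.7 and 47.0 in the knockout group. WT library 1 was the lowest of WT and still above every library with the transgene. The log2 difference of Eμ-Myc from WT was -1.32 (SE 0.20, limma adjusted p = 4.35e-04).

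S1pr3, a receptor of sphingosine 1-phosphate found on marginal zone B cells among others, was low in all groups. It was 8.32, 17.9, 17.4 and 4.14 in WT and 3.78, 1.73, 1.75 and 1.80 in Eμ-Myc, so that Eμ-Myc library 1 came close to WT library 4. The log2 difference was -2.02 (SE 0.45, limma adjusted p = 0.00439). The knockout libraries gave 4.26, 4.04, 0.111 and 0.111. Of its exonic bases 1.0% are shared with the lincRNA Gm32834 on the opposite strand, as are 3.3% of those of Cxcr5 with Bcl9l, and whether the authors' coverage used strand is not stated.

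S1pr4, a receptor of the same lipid that is largely restricted to blood cells, was 119, 150.4, 120.0 and 144 in WT and 106, 139, 104 and 111 in Eμ-Myc, and the groups overlapped. The log2 difference was -0.21 (SE 0.13, 95% interval -0.50 to 0.07, limma adjusted p = 0.177). It was therefore not called, and the interval leaves room for a fall as large as its lower bound. The call depended on the scaling and on 1 library. With libraries scaled to their total coverage the difference was -0.40 (adjusted p = 0.0132), and without Eμ-Myc library 2 it was -0.31 (0.0443). Total coverage scaling also moved the median of all genes, by -0.18. With library quality weights the difference was -0.30 (0.0181).

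Klf2 was 601, 535, 393 and 686 in WT and 284, 361, 358 and 340.3 in Eμ-Myc. WT library 3 lay just above the highest Eμ-Myc library, and the groups did not overlap. The mean went from 554 ± 124 to 336 ± 35.5 (SD, n = 4), a log2 difference of -0.70 (SE 0.17, limma adjusted p = 0.00661). Without WT libraries 1 and 4 together it was -0.45 (0.0490). The fall of Klf2, to 60.7% of WT, was smaller than that of S1pr1, to 39.4%, as measured by group means, with no test of the difference between the genes.

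Markers of other B-cell stages and of other cells moved between the same groups. The summed coverage of 3 follicular B-cell markers (Fcer2a, Icosl, Cd55) ranged from 2003 to 3639.6 in WT and from 430.2 to 827 in Eμ-Myc, and all 3 were called lower. Of 8 marginal zone markers 6 were called lower, with sums of 582 to 882 against 325 to 466. Of 8 markers of immature or precursor B cells 6 were called higher, where 30.4% of all genes were, with sums of 326 to 749 against 1361 to 2069. Vpreb3 made up most of these sums, with means of 436 in WT and 1440.3 in Eμ-Myc. Rag2, Vpreb1 and Igll1 averaged under the minimum of 1 in WT (0.335, 0.774 and 0.605) and passed the filter through Eμ-Myc, where they are high. T-cell markers, of genes that T cells use beside several of these receptors, summed to 454 to 2650.4 in WT, highest in library 4, and 94.7 to 134 in Eμ-Myc, and all 10 were called lower. All 6 NK-cell markers were called lower as well, with sums of 338 to 1429 and 91.9 to 237. Of 10 myeloid and dendritic markers 3 were called lower, near the 24.7% of all genes, and the sums ranged from 7944 to 24389 in WT and from 5598 to 16498 in Eμ-Myc. Of 5 plasma-cell markers 2 were called lower, and of 8 erythroid markers limma called 0. Endothelial cells also express S1pr1, S1pr3 and Klf2. Of 9 endothelial markers 3 passed the filter, and the sums were 14.2 to 24.6 in WT and 30.4 to 37.5 in Eμ-Myc, low in both. The higher sum was that of Egfl7, called higher with means of 4.37 in WT and 25.3 in Eμ-Myc. Esam was called lower, from 13.2 to 5.51, and the other 7 markers, Cdh5, Kdr, Tek, Flt1, Emcn, Robo4 and Tie1, had means of at most 1.28 in WT and in Eμ-Myc. The part of these markers in the differences of the 9 genes was not tested. WT libraries 1 and 4 had the highest T-cell and NK-cell sums and the lowest B-cell sums, 6160.0 and 5990.4 against 11643 and 9894 in libraries 2 and 3. They were also the lower WT libraries for Cxcr5, Ccr6, S1pr3 and Gpr183, and the higher ones for Cxcr4 and Klf2.

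**Figure D2:**
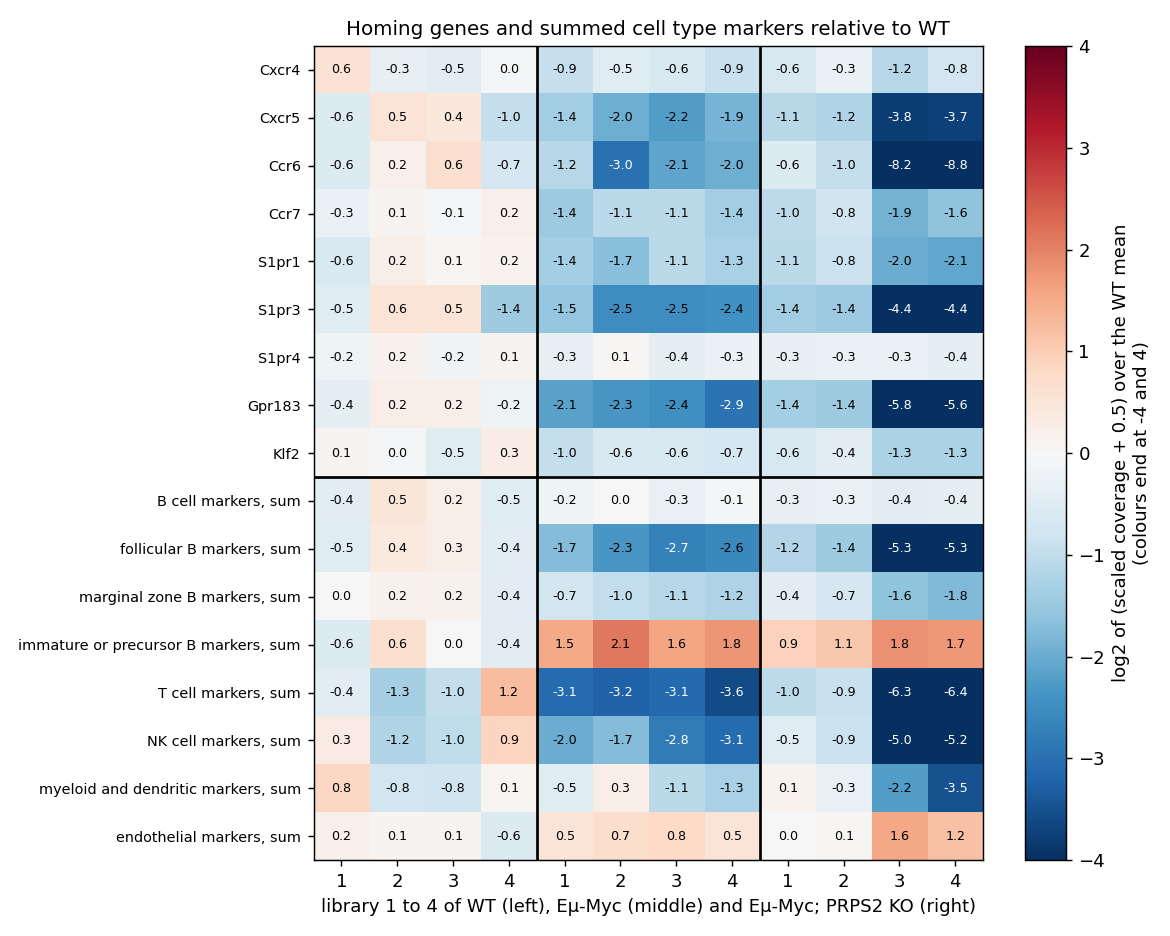
Log2 of scaled coverage plus 0.5 over the WT mean, for the 9 genes and for the summed coverage of cell type marker lists, with 1 row per gene or list and 1 column per library. Blue cells are below WT and red cells above, and the colours end at -4 and 4. Knockout libraries 3 and 4 are low for follicular and T-cell markers and for Ccr6, S1pr3, Gpr183 and Cxcr5 in the same columns.

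None of the 9 genes passed the threshold between the knockout group and Eμ-Myc, the comparison that isolates PRPS2. limma called 0 of the 9, and 0 had an unadjusted p under 0.05. Of the 12551 genes tested in this comparison 1, Prps2 itself, was called (0.00797%), and 0.964% had an unadjusted p under 0.05. The groups overlapped for all 9 genes, whereas 1.53% of the genes tested showed no overlap. The median log2 difference was -0.18 for the 9 genes and -0.03 for all genes tested.

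The intervals say how much each gene could have moved if the knockout libraries are independent of each other, although they stood apart in pairs. Cxcr4 differed by 0.02 (SE 0.20, 95% interval -0.44 to 0.48), Ccr7 by -0.08 (SE 0.25, -0.65 to 0.49), Klf2 by -0.18 (SE 0.22, -0.68 to 0.32) and S1pr4 by -0.09 (SE 0.12, -0.37 to 0.19). S1pr1 differed by -0.15 (SE 0.30, -0.84 to 0.54). For these 5 genes a change of 1 on the log2 scale lies outside the interval. For the other members the intervals were too wide for that: -2.13 to 0.94 for Cxcr5, -2.42 to 1.12 for S1pr3, -3.59 to 1.41 for Gpr183 and -7.06 to 1.89 for Ccr6.

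Ccr6, S1pr3 and Gpr183 were at or above the minimum coverage of 1 in 2 of its 4 libraries and entered the test through the Eμ-Myc libraries. The follicular marker Fcer2a was 1011 and 836 in knockout libraries 1 and 2 and 3.66 and 2.66 in libraries 3 and 4, and the complement receptor gene Cr2 was 66.0, 61.9, 0.111 and 0.333. Cr2 is 1 of the 8 marginal zone markers, whose sums were 571, 491, 253 and 226 in library order. Cd36 of the same list did not split this way (129, 159, 172 and 145). T-cell markers in the knockout group summed to 547, 611, 14.1 and 12.8 in library order and NK-cell markers to 552, 426, 23.9 and 21.2. The knockout libraries with low Ccr6, S1pr3, Gpr183 and Cxcr5 were thus those with low follicular, T-cell and NK-cell markers. Myeloid and dendritic markers followed the same split, with sums of 14991, 11219.9, 2929.8 and 1229.5 in library order, while the summed immature or precursor markers were 909, 1005, 1705 and 1575. Vpreb3 made up most of that sum (802, 879, 1553 and 1427), Rag1 went the other way (22.0, 27.6, 8.44 and 10.2), and Rag2 showed no such split (4.98, 6.74, 5.88 and 5.55). Myc was 1099, 1718, 3017 and 3282 in the same order. Plasma-cell markers summed to 492, 594, 245 and 274, with Jchain at 184, 234, 2.00 and 2.44, and erythroid markers ranged from 125 to 171. The endothelial sum went the other way, at 21.4, 22.1, 63.1 and 48.7, through Egfl7 (10.4, 12.8, 59.8 and 46.4). Esam was lower in libraries 3 and 4 (7.62, 6.33, 0.999 and 1.11). Cdh5, Flt1, Kdr and Tek were likewise lower there, Emcn was higher, and Robo4 and Tie1 were mixed, each with a mean under 1. The part of these markers in the differences was not tested. Cxcr4 was 431, 558, 304 and 397 in the same libraries, and Ccr7, S1pr1 and Klf2 were likewise lower in libraries 3 and 4 than in 1 and 2. S1pr4, at 105, 111, 109.7 and 102, showed no such split. The result also depended on how libraries were weighted. With library quality weights estimated by limma 7 of the 9 genes and 7459 genes in all were called. The differences were then -3.07 for Gpr183, -6.48 for Ccr6, -0.84 for S1pr1, -0.56 for Klf2 and -0.46 for Ccr7. These estimates lie nearer to knockout libraries 3 and 4 than to the group means.

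**Figure D3:**
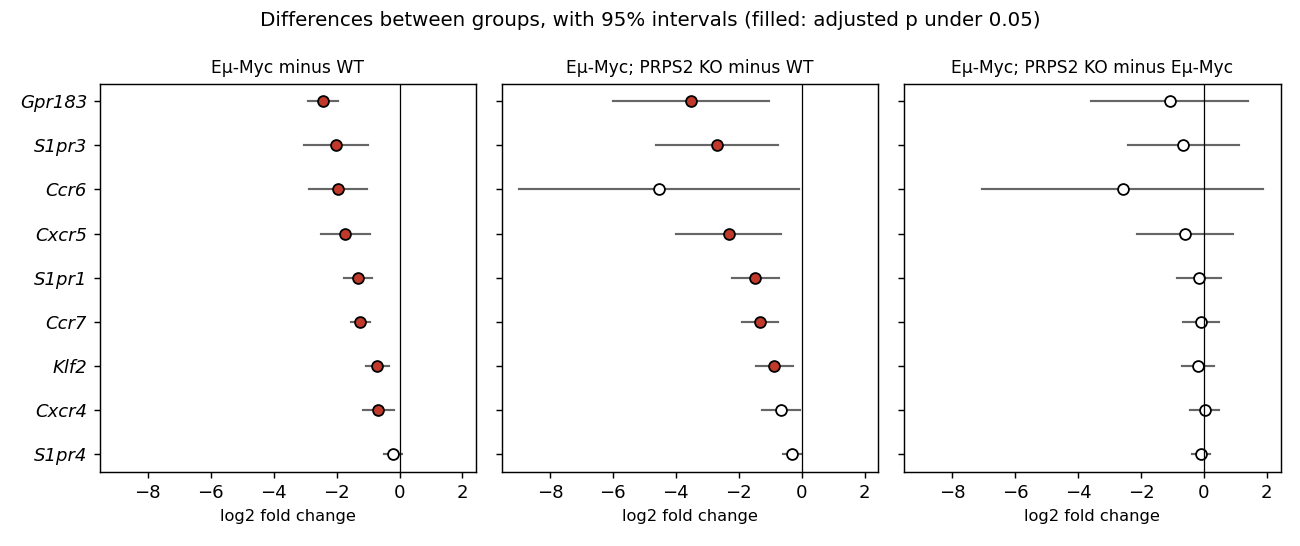
Log2 difference of scaled coverage for the 9 genes in the 3 comparisons, with 95% intervals from limma (n = 4 libraries per group). Filled points are called at an adjusted p under 0.05. The intervals of the knockout group against Eμ-Myc all include 0, and that of Ccr6 is the widest.

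The knockout group was also set against WT, a comparison that carries both alterations and uses the same WT libraries as the one above. Of the 9 genes 6 were called lower, where 9.60% of the 12692 genes tested were called lower and 29.3% in either direction. The called genes were Cxcr5 (-2.32, SE 0.72, limma adjusted p = 0.0453), Ccr7 (-1.32, SE 0.25, 0.0147), S1pr1 (-1.47, SE 0.33, 0.0223), S1pr3 (-2.68, SE 0.85, 0.0470), Gpr183 (-3.53, SE 1.08, 0.0440) and Klf2 (-0.87, SE 0.25, 0.0387). Klf2 in the knockout libraries was 356, 409.6, 228 and 230.4, and overlapped WT library 3. S1pr3 also overlapped WT. S1pr3 and Gpr183 reached the minimum of 1 in 2 of the 4 knockout libraries and passed the filter through WT, where they are high, as did Ccr6. Not called were Cxcr4 (-0.65, SE 0.27, 0.0865), Ccr6 (-4.53, SE 1.94, 0.0961) and S1pr4 (-0.31, SE 0.12, 0.0761). All knockout libraries lay below all WT libraries for 5 of the 9 genes, as did 14.9% of the genes tested. Without adjustment all 9 genes had a p under 0.05 and a lower mean, as did 21.4% of the genes tested. The median log2 difference was -1.47 for the 9 genes and -0.01 for all. Marker lists moved in this comparison too. Of 8 immature or precursor B markers 6 were called higher, where 29.3% of all genes were called in either direction and 9.60% lower. Rag2, Vpreb1 and Igll1 averaged under 1 in WT and passed the filter through the knockout group. Medians of the follicular, T-cell and NK-cell markers were -3.78, -3.20 and -2.52, with none of them called. The part of these markers was not tested.

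Most of these calls against WT did not stand without single libraries. With a replicate block 2 of the 9 genes and 1863 genes in all were called, and with no filter 3 of the 9. The number of the 9 genes called was 2 without WT library 1, 0 without WT library 2, 1 without WT library 3 and 1 without WT library 4. Calls among all genes fell as well, from 3716 to 883, 610, 600 and 1256 in the same order. Of the 9 genes 7 were called without knockout library 1 or without knockout library 2, and 1 without knockout library 3 or without knockout library 4. Among all genes the calls rose without knockout library 1 and fell without knockout library 3 or 4. Ccr7 was called under each removal of 1 library but that of WT library 2 (adjusted p = 0.0526). Without WT libraries 1 and 4 together none of the 9 genes was called, and 4 genes in all were.

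The order of levels differed between groups. Coverage did not rise with gene length (Spearman -0.07 over 11802 coding genes, with exonic length). How coverage was computed is not given, so the order of genes describes these values and may not be that of their RNA. In WT the order from the highest mean was Cxcr4, Klf2, Ccr7, Ccr6, Cxcr5, S1pr1, S1pr4, Gpr183 and S1pr3, and neighbours were separated without overlap of their libraries between Ccr7 and Ccr6, between S1pr4 and Gpr183 and between Gpr183 and S1pr3. In Eμ-Myc the order was Cxcr4, Klf2, Ccr7, S1pr4, S1pr1, Cxcr5, Ccr6, Gpr183 and S1pr3. S1pr4 thus stood below S1pr1, Cxcr5 and Ccr6 in WT and above them in Eμ-Myc, where its libraries lay above all of theirs. In the knockout group Ccr7 and S1pr4 were separated, and the libraries of every other pair of neighbours overlapped.

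Most of the ligand genes were too low to test. Of 8 chemoattractant genes 2 passed the filter, and Cxcl16, the membrane-bound ligand of CXCR6, was called lower in Eμ-Myc against WT (-0.86, adjusted p = 0.0198). Of 4 enzymes of oxysterol metabolism 2 passed, and Cyp27a1 was called lower (-0.67, adjusted p = 0.0391). Of 9 tested genes that make, export or break down sphingosine 1-phosphate 2 were called lower, near the 24.7% of all genes, the exporter Spns2 (-1.44, adjusted p = 9.09e-04) and the lyase Sgpl1 (-0.81, adjusted p = 0.00162). The kinase Sphk1 had a mean of 7.42 ± 6.47 for WT against 18.0 ± 6.34 for Eμ-Myc (SD, n = 4) and was not called (1.52, limma adjusted p = 0.0537).

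Of 17 other chemoattractant receptors tested 14 were called lower in Eμ-Myc than in WT and 0 higher, where 24.7% and 30.4% of all genes were. Their median log2 difference was -1.82 beside -0.01 for all genes. The largest falls were those of Gpr174 (-2.82, limma adjusted p = 1.15e-05), a lysophosphatidylserine receptor of lymphocytes, Cxcr3 (-2.21, 4.67e-04), a receptor of activated lymphocytes, Ackr3 (-2.20, 2.43e-04), a scavenger of CXCL12, and Ccr9 (-2.18, 0.00152), the gut-homing receptor of CCL25. Gpr174 was 116, 124, 151 and 170.2 in WT, 30.8, 15.9, 16.4 and 16.8 in Eμ-Myc, and 60.6, 55.7, 0.666 and 0.777 in the knockout group, so it was lowest in the same 2 knockout libraries as Gpr183. Several of these receptors, Cxcr3, Cxcr6, Cx3cr1 and Ccr2 among them, are known from T, NK or myeloid cells. Their part in these calls was not tested.

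Downstream of the receptors, 13 of 23 tested genes of G protein signalling were called lower and 0 higher, where 24.7% of all genes were called lower and 30.4% higher. Their median was -0.44. The largest falls were those of Pik3r5 (-1.24, limma adjusted p = 0.00560), a subunit of the PI3-kinase that G proteins activate, Grk5 (-1.23, 0.00501) and Grk3 (-0.90, 0.0159), receptor kinases, and Arhgef1 (-0.86, 0.00202), an exchange factor that acts below S1PR2. Gna13, the G protein of that arm, differed by -0.31 (0.0305). The inhibitory G protein gene Gnai2 (-0.26, 0.0979) and the receptor kinase gene Grk2 (0.08, 0.465) were not called.

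RGS proteins speed the shutdown of G proteins. Of 9 tested 6 were called lower, beside 24.7% of all genes, among them Rgs3 (-1.79, limma adjusted p = 4.06e-04), Rgs10 (-1.46, 1.97e-04) and Rgs18 (-1.37, 0.00143). The 6 include Rgs13, a germinal centre gene, which was under the minimum of 1 in every Eμ-Myc library (mean 0.440) and passed the filter through WT alone. Rgs1, which restrains CXCR4 and CXCR5 signalling, was 92.9 in WT and 37.4 in Eμ-Myc on average and was not called (-1.07, 0.178).

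Of 16 adhesion and homing molecules tested 12 were called lower and 0 higher, beside 24.7% and 30.4% of all genes, with a median of -0.74. Cd69, which binds S1PR1 protein and takes it off the cell surface, was 82.2, 64.4, 61.8 and 119.5 in WT and 12.2, 12.8, 46.3 and 15.2 in Eμ-Myc, with 29.1, 50.8, 2.66 and 3.77 in the knockout group. Its mean was lower in Eμ-Myc than in WT, as was that of S1pr1 (-2.08 for Cd69, limma adjusted p = 0.00279). The integrin genes Itgal (-1.56, 6.98e-04), Itgae (-1.23, 0.0205) and Itgb2 (-1.15, 0.00434) followed.

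In the KLF family 4 of 12 tested genes beside Klf2 were called lower and 1 higher, where 24.7% of all genes were called lower and 30.4% higher, so the share called lower was near that of all genes. Klf3 (-1.46, limma adjusted p = 0.00148), a repressor, Klf7 (-1.38, 3.33e-04), Klf6 (-1.33, 0.0325) and Klf13 (-0.30, 0.0218) fell, and Klf9 (1.12, 4.46e-04) rose from a low level. Klf6 was 244, 76.7, 77.1 and 275 in WT and 54.6, 52.1, 78.5 and 44.3 in Eμ-Myc. Its groups overlapped, and it was high in WT libraries 1 and 4, those with the highest T-cell and NK-cell sums. Among 10 genes that act upstream of Klf2 the directions were mixed, with 5 called lower and 3 higher against the same shares of all genes. Foxo1, the forkhead factor known to drive Klf2 and Ccr7 in lymphocytes, was 72.6, 114, 109 and 128 in WT, 45.8, 43.0, 40.1 and 40.2 in Eμ-Myc, and 57.3, 64.4, 20.8 and 23.4 in the knockout group. It fell in Eμ-Myc by 1.29 on the log2 scale (adjusted p = 1.83e-04), with no overlap. Mef2a (-0.99, 2.14e-04), Mef2c (-0.98, 0.00820), Foxo3 (-0.74, 0.0496) and Foxo4 (-0.44, 0.0137) also fell, Foxo3 with groups that overlapped, while Akt1 (0.61, 0.00379), the kinase that keeps FOXO proteins out of the nucleus, Mef2d (0.35, 0.0241) and Map2k5 (0.31, 0.0172) rose.

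In the knockout group against Eμ-Myc limma called 0 genes of these lists without library weights. With quality weights, where 7459 genes in all were called, the lists were not counted. Against WT the knockout group had 4 of 17 other receptors called lower, namely Gpr18 (-3.07), Ackr3 (-2.33), P2ry10 (-2.15) and S1pr2 (-1.60), each with an adjusted p from 0.0275 to 0.0407. Ackr3 was under the minimum in knockout libraries 3 and 4 (0.222 and 0.444) and passed the filter through the WT libraries. Of all genes tested 9.60% were called lower in this comparison. The knockout group had 3 of 23 G protein signalling genes, a share near that of all genes, 5 of 9 RGS genes and 3 of 16 adhesion molecules called lower, Cd69 (-2.73, adjusted p = 0.0493) among the last. The RGS count includes Rgs13, which was 0.609, 1.04, 0 and 0 in the knockout libraries and passed the filter through WT. Foxo1 (-1.49, 0.0337) was called lower and Akt1 (0.61, 0.0495) higher, as they were in Eμ-Myc, with the WT libraries shared between the comparisons.

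Across the 12 libraries the genes with the most similar profile to each member, by Pearson's r of log2 values among 9573 genes, are given as a description. The libraries share their genotype groups and, in the knockout group, the split into pairs. How common such high values are among all genes was not tested. Only genes with a mean of at least 8 were candidates, which left out S1pr3. Among these Cxcr5 was most like H2-Ob (0.994), Ero1lb (0.993) and Gng2 (0.992), and Ccr6 most like Fcer2a (0.989), Fcrl5 (0.989) and Cr2 (0.984). S1pr3 was most like another member, Cxcr5 (0.996). For Gpr183 the nearest were Lta (0.998), Egr3 (0.995) and Relb (0.995). Klf2 was nearest to Pim2 (0.973), Cytip (0.967) and Zfand6 (0.961), Ccr7 to Nrbp1 (0.975), S1pr1 to Zfp869 (0.982), Cxcr4 to Tsc22d4 (0.937) and S1pr4 to Bcl7b (0.967). Among the members themselves r ranged from 0.394 for Ccr6 with S1pr4 to that of Cxcr5 with S1pr3. Cxcr4 and Klf2, the members with the highest mean coverage, correlated at 0.859.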

How the data were processed

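RNA-seq libraries of splenic B lymphocytes were prepared with a directional kit from polyadenylated RNA, per the labels' protocols. What the authors deposited is a mean coverage for each gene symbol, a signal given to 1 decimal and not a count: 91.6% of the values above 0 were not whole. The submitters' processing notes name mm10, DESeq and R 4.3.3; the aligner, the counting step and its use of strand are not given in the sources used here. Depth is therefore unknown, and no counting interval is given.

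Libraries were scaled with unweighted trimmed means of log ratios (trimming 30% of ratios and 5% of mean values from either end), against the library whose upper quartile was nearest the mean. Genes that reached a scaled coverage of 1 in 4 or more of 8 libraries were tested with limma 3.58.1 in R 4.3.3 on log2(scaled coverage + 0.5), with a trended prior, robust empirical Bayes and Benjamini-Hochberg adjustment, two-sided. All 9 genes were tested in each comparison. The code was tested on simulated data. Sequences, locations and figures were handled with Python 3.11.15, numpy 2.4.6, scipy 1.17.1 and matplotlib 3.10.9.

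The 9 genes and all lists were chosen with earlier results of these data known. All 9 are named throughout. A gene of the adhesion list is not reported here by name. List genes are named when called with a mean of at least 1, at most 4 per direction, or when their known role touches a member. The likeness of profiles used genes with a mean of at least 8. Sphk1, Fcer2a, Cr2, Cxcr6, Cx3cr1, Ccr2 and the promoters printed were picked after values were seen.

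Replicates are numbered in the labels. Deviations of same-numbered libraries of the knockout group and Eμ-Myc from their group means correlated at 0.657, 0.192, 0.253 and 0.607, all over 0.1, so a fit blocked on these numbers was run as a paired alternative. The labels do not state that a number marks a pair. Other scalings, pseudocounts, filters, fits, library weights and the removal of libraries were also tried. Removing WT libraries 1 and 4 together was chosen after seeing the data.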

Additional observations from a re-analysis of the deposited data

Results flagged for a closer look

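S1pr3 in Eμ-Myc library 1 had a scaled coverage of 3.78, and the nearest of the other Eμ-Myc libraries had 1.80. The gap was 0.964 of the range of the group, above Dixon's critical value at 95% for 4 libraries. Chance gives about 1 such library in 20 groups, and 27 combinations of gene and group were looked at. The same library had the highest Cxcr5, Ccr6 and Gpr183 of Eμ-Myc.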

How the results depend on the processing

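In Eμ-Myc against WT the number of the 9 genes called ranged from 6 to 9 over all settings. It ranged from 7 to 9 when 1 library was left out, and was 7 with a replicate block. All genes called ran from 5770 to 6857 when 1 library was left out, and numbered 7184 with the block. The number was 6 with all 12 libraries in 1 fit, where 5494 of 12956 genes were called. It was also 6 when at least 10 was asked of every library, with 7 of the 9 tested and 4835 of 8158 genes called. Quality weights gave 9, with 8808 of 12723 genes called. The block left Cxcr4 at an adjusted p of 0.0568. Cxcr5, Ccr7, S1pr1 and Klf2 were called lower under all 18 settings. Total coverage scaling moved the median of all genes by -0.18 in Eμ-Myc against WT and by -0.15 in the knockout group against WT, and gave 9 and 7 calls among the 9 genes. In Eμ-Myc against WT 7284 of 12699 genes were called with this scaling, beside 7016 of 12723 in the main fit. The count over all genes is not given here for the knockout group.

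In the knockout group against Eμ-Myc 0 of the 9 genes and 1 gene in all were called under every setting, the replicate block included, except library quality weights (7 and 7459). The sign of Cxcr4 turned with quality weights (-0.15) and without Eμ-Myc library 1 (-0.05), Eμ-Myc library 4 (-0.04) or knockout library 2 (-0.13). That of Ccr7 turned without knockout library 3 (0.11) or 4 (0.01), and that of S1pr1 likewise (0.01 and 0.05). With 1 library left out the values ranged up to 0.16 for Cxcr4 (without knockout library 3) and down to -0.26 for Ccr7 and -0.37 for S1pr1 (without knockout library 2). The ranges of the other genes were -1.04 to -0.15 for Cxcr5, -3.94 to -1.20 for Ccr6, -1.15 to -0.16 for S1pr3, -1.82 to -0.34 for Gpr183 and -0.33 to -0.05 for Klf2, with the lowest without knockout library 1 or 2 and the highest without 3 or 4. S1pr4 ran from -0.14 to 0.00. None of these values from leaving out 1 library was called.

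In the knockout group against WT the count among the 9 genes was 3 with no filter and 2 with a replicate block, and ranged from 0 to 7 when 1 library was left out. Over the alternative settings the log2 differences ran from -8.69 to -3.15 for Ccr6 and from -3.92 to -1.88 for Cxcr5. They ran from -5.73 to -2.78 for Gpr183 and from -4.52 to -1.80 for S1pr3. Ccr6 was called in 4 of 17 settings, and Cxcr4 and S1pr4 in 2 of 18 each. All genes called, 3716 in the main comparison, numbered 6059 with all 12 libraries in 1 fit, 10505 with quality weights and 1863 with the replicate block. They ranged from 600 without WT library 3 to 6633 without knockout library 1, with 883 without WT library 1, 610 without WT library 2, 1256 without WT library 4, and 706 and 642 without knockout libraries 3 and 4. Without WT libraries 1 and 4 together 0 of the 9 genes and 4 in all were called. The cause was not tested. In both comparisons with WT the numbers do not pair the libraries, since same-numbered correlations ran from -0.097 to 0.264 and from -0.423 to 0.398, not all over 0.1. In none of the 3 comparisons did every library correlate best with its own number, and in the knockout group against Eμ-Myc libraries 2 and 3 correlated best with numbers 1 and 4.

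Low levels limit S1pr3 in Eμ-Myc and Ccr6, S1pr3 and Gpr183 in knockout libraries 3 and 4, where the log2 difference depends on the pseudocount.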
